A study of Ovis aries with 8 samples.

Results

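The growth hormone and IGF axis was followed in the hypothalamus of adult Ile-de-France ewes through 10 transcripts: the releasing hormone GHRH, the somatostatin receptors SSTR1 and SSTR2, the growth hormone receptor GHR and its inhibitor SOCS2, the growth factor IGF1 and its receptor IGF1R, and the IGF binding proteins IGFBP2, IGFBP3 and IGFBP5. These genes were chosen by symbol, and each had 1 row among the 33609 genes of the count table. The study compared food-restricted ewes with ewes fed ad libitum, called well fed here, with 60 ewes in each group drawn from 2 successive years. RNA of the mediobasal hypothalamus, the base of the brain that holds the arcuate nucleus and the median eminence, was mixed from 15 ewes at a time into 4 pools per group, and each pool gave 1 sequencing library. Both groups were adult females of the same breed with no other treatment named in the labels, which give neither the length nor the degree of the restriction, nor the year of a pool. A value is therefore an average over 15 ewes, n counts pools, and p-values measure the spread between these mixes.

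Growth hormone release from the pituitary is driven by GHRH, made by arcuate neurons that send their axons to the median eminence, and is restrained by somatostatin acting through its receptors. Growth hormone acts through GHR and the kinase JAK2 on STAT5 transcription factors, which induce SOCS2 as a brake and, mainly in the liver, IGF1. IGF1 signals through IGF1R, and the binding proteins hold it in tissue fluid and blood and set how much reaches the receptor. In underfed animals blood growth hormone commonly rises while blood IGF1 falls, which makes the hypothalamic part of the axis a natural question in this design.

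Total counts were between 36192025 and 48125991 reads per pool, and 18193 genes had enough reads to be tested. All 10 members were among them, with between 177 and 16487 reads per pool. Values are CPM, reads scaled to the size of each library (TMM), and CPM of different genes are not compared because long transcripts give more reads. The 11 arcuate markers fixed for the tissue, GHRH included, all had enough reads to be tested. Of the 13 pituitary markers 11 were tested, and the summed level of the list was 3086 to 3757 CPM in food-restricted and 2483 to 4527 CPM in well-fed pools. Most of this sum came from CHGA (1372 to 2530 CPM over the pools) and CGA (827 to 1474 CPM), so it says little about the other markers. Along the first principal component (34.7% of the variance over all tested genes) the pools fell on either side of 0. The split ran through both feeding groups, with food-restricted pools 1 and 2 and well-fed pools 3 and 4 on one side. Food-restricted pool 4, on the other side, lay close to 0 (score -9.23). The remaining pools had scores of 29.4 or more, or of -33.0 or less.

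No change of the axis with food restriction was detectable in these pools. Of the 10 members 0 passed the edgeR quasi-likelihood test at an adjusted p under 0.05, where 0.0055% of all tested genes did. None had an unadjusted p under 0.05 in edgeR, against 1.7% of all tested genes, and DESeq2 and limma voom also called 0. In no member did the 4 food-restricted pools lie wholly above or below the 4 well-fed pools. Such a gap between the groups was seen in 1.6% of the genes tested. At shares this low, 0 of 10 members does not set the axis apart from other genes. On the log2 scale 7 members were higher and 3 lower, with a median of 0.03 beside 0.01 over all tested genes. The adjusted p was 1 for each member (edgeR). AGRP, the hunger peptide of arcuate neurons, was measured in the same libraries at 155 ± 25.9 CPM against 50.7 ± 10.1 CPM (SD, n = 4 each), and was the 1 gene called. AGRP was no longer called when any single pool of the 8 was left out, or when replicate numbers entered the fit as a block.

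**Figure D1:**
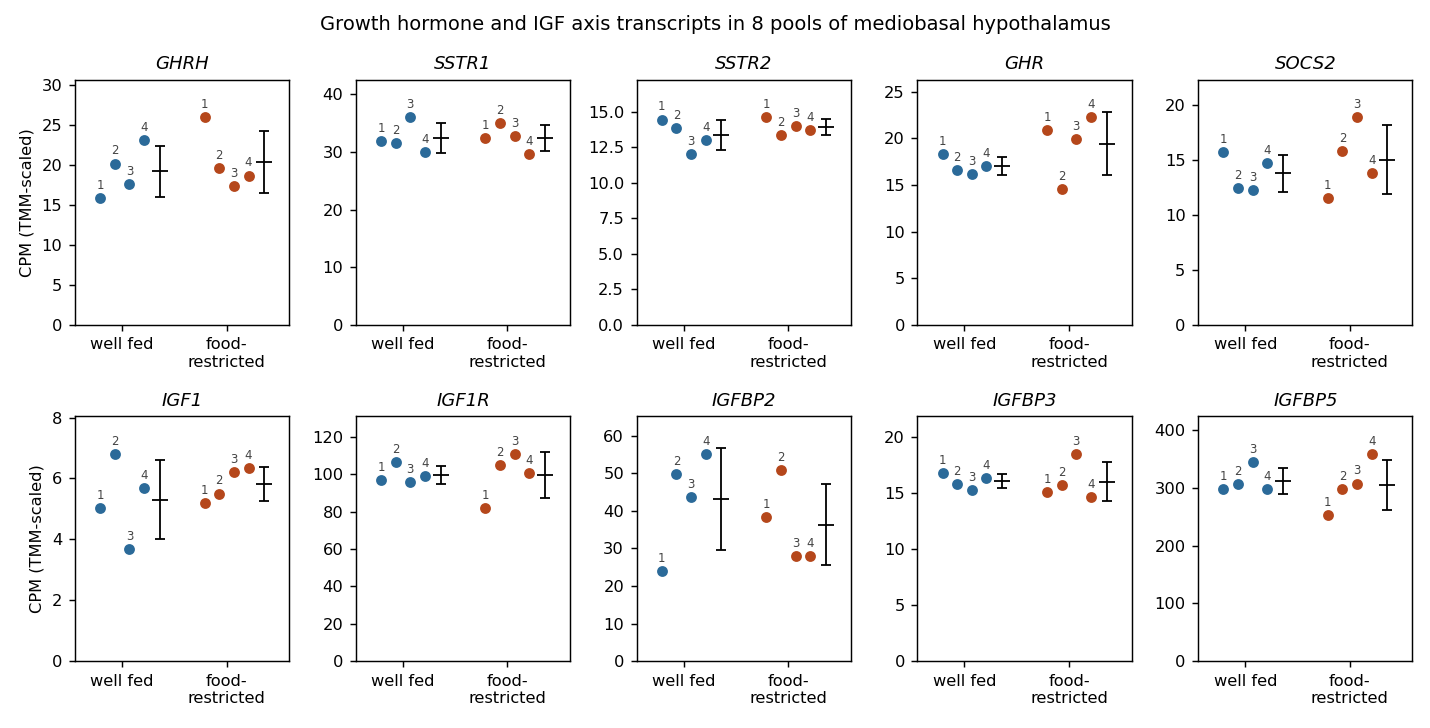
CPM (TMM-scaled, y axes from 0) of the 10 axis members in each pool, with well-fed pools in blue and food-restricted pools in orange; digits are pool numbers, and bars give the mean and SD of 4 pools. In every panel the points of the groups overlap, and IGFBP2 has the widest spread, from 24.0 to 55.2 CPM.

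GHRH, the hormone that releases growth hormone, was at 25.9, 19.5, 17.3 and 18.6 CPM in food-restricted pools 1 to 4 and at 15.9, 20.1, 17.5 and 23.1 CPM in well-fed pools 1 to 4. Food-restricted pool 1 was the highest of the 8, while the other 3 food-restricted pools lay within the range of the well-fed pools. The means of 20.4 ± 3.84 and 19.2 ± 3.16 CPM (SD, n = 4 each) gave a log2 fold change of 0.09 (SE 0.17, food-restricted minus well fed). The 95% interval of the change ran from 0.815-fold to 1.39-fold, and an exact two-sided permutation test over the pools gave p = 0.657, where 4 pools against 4 can reach 0.0286. The sign rested on food-restricted pool 1, without which the log2 fold change was -0.05. In a bulk sample, a change in the number of GHRH neurons taken and a change in GHRH RNA per neuron cannot be told apart.

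The somatostatin receptors had the smallest spread between pools of the 10 members. SSTR1, an inhibitory receptor of hypothalamic neurons, was at 32.5, 35.1, 32.7 and 29.6 CPM in food-restricted pools 1 to 4 and at 31.9, 31.5, 36.1 and 30.0 CPM in well-fed pools 1 to 4. The highest pool was thus well fed and the lowest food-restricted, with 1.22-fold between them. Its log2 fold change was 0.00 (SE 0.11), with a 95% interval from 0.842-fold to 1.20-fold. SSTR2, the other abundant inhibitory receptor for somatostatin, was at 14.6, 13.3, 14.0 and 13.7 CPM in food-restricted pools and at 14.5, 13.9, 12.1 and 13.0 CPM in well-fed pools. Here well-fed pool 3 was the lowest, and the whole range was 1.21-fold. For SSTR2 the log2 fold change was 0.06 (SE 0.13), with a 95% interval from 0.856-fold to 1.27-fold. The within-group SD of SSTR2 on the log2 scale was 0.09, smaller than that of all but 0.7% of the 1000 tested genes nearest to it in level, and the SD of SSTR1 was smaller than that of all but 5.3% of its neighbours in level. A low SD for its level was also found in IGFBP3, smaller than that of all but 2.4% of its neighbours. Somatostatin itself (SST) was listed at 0 in all 8 pools, which by counting error alone allows up to 3 reads per pool. How reads were assigned to its row is not known here, so the 0 is not taken as absence of SST RNA. The ligand of these receptors could therefore not be followed.

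GHR, the growth hormone receptor, had the smallest p of the members (edgeR unadjusted p = 0.246). It was at 20.9, 14.6, 19.9 and 22.3 CPM in food-restricted pools 1 to 4 and at 18.4, 16.6, 16.1 and 17.1 CPM in well-fed pools 1 to 4. Food-restricted pools 1, 3 and 4 exceeded every well-fed pool, and food-restricted pool 2 was the lowest of the 8. With means of 19.4 ± 3.37 and 17.0 ± 0.964 CPM (SD, n = 4 each), the log2 fold change was 0.19 (SE 0.15) with a 95% interval from 0.901-fold to 1.44-fold. Without food-restricted pool 2 the log2 fold change was 0.32 and the edgeR unadjusted p was 0.03, with an adjusted p of 0.964 over all genes. SOCS2, the feedback inhibitor that growth hormone induces through STAT5, was at 11.5, 15.8, 18.9 and 13.8 CPM in food-restricted and 15.7, 12.5, 12.3 and 14.7 CPM in well-fed pools. Food-restricted pools 1 and 3 were the lowest and the highest of the 8, so the restricted group spanned the whole range. SOCS2 had a log2 fold change of 0.12 (SE 0.18), with a 95% interval from 0.83-fold to 1.43-fold, and without food-restricted pool 3 it was -0.01. Over the 8 pools receptor and inhibitor were hardly correlated (Pearson's r = -0.03, Spearman's rho = -0.12). Food-restricted pool 2, where GHR was lowest, had the second highest SOCS2, and food-restricted pool 1, high in GHR, had the lowest. Among the well-fed pools the 2 genes had the same order, with pool 1 highest, then pools 4, 2 and 3.

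IGF1, the growth factor, was the member with the fewest reads, 177 to 268 per pool. It was at 5.20, 5.51, 6.21 and 6.36 CPM in food-restricted pools 1 to 4 and at 5.03, 6.81, 3.69 and 5.69 CPM in well-fed pools 1 to 4. The food-restricted pools lay close together inside the range of the well-fed pools, of which pool 2 was the highest and pool 3 the lowest of all. Its log2 fold change was 0.13 (SE 0.21), with a 95% interval from 0.792-fold to 1.52-fold, and it was 0.01 without well-fed pool 3. Counting error alone gives a CV of 6.57% at this depth, beside a CV of 9.52% among food-restricted and 24.6% among well-fed pools. IGF1R, the tyrosine kinase receptor of IGF1, was at 81.9, 105, 110.8 and 100.4 CPM in food-restricted pools and at 96.6, 106, 95.8 and 98.8 CPM in well-fed pools. Food-restricted pool 1 was low and the other 7 pools lay between 95.8 and 110.8 CPM. The group means of IGF1R were 99.6 ± 12.5 and 99.3 ± 4.74 CPM (SD, n = 4 each), and the 95% interval of the change ran from 0.841-fold to 1.19-fold.

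The IGF binding proteins differed in how much they varied, and in none did the groups part. IGFBP2, a binding protein made by glia, choroid plexus and meninges, was at 38.5, 50.7, 28.1 and 28.0 CPM in food-restricted pools 1 to 4 and at 24.0, 49.8, 43.6 and 55.2 CPM in well-fed pools 1 to 4. The pools fell into 3 low ones (food-restricted 3 and 4 and well-fed 1, at 24.0 to 28.1 CPM) and 5 others at 38.5 CPM or more, with both feeding groups in each. At -0.25 (SE 0.27), the log2 fold change of IGFBP2 was the furthest from 0 among the 10, with a 95% interval from 0.561-fold to 1.27-fold and p = 0.571 in the exact two-sided permutation test. The 3 low pools were all on one side of the first principal component, and the fourth pool of that side, well-fed pool 2, was high. The within-group SD of IGFBP2, 0.48 on the log2 scale, was above that of 92.9% of the 1000 genes nearest in level.

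IGFBP3, the main carrier of IGF1 in blood, was at 15.1, 15.7, 18.5 and 14.7 CPM in food-restricted and 16.8, 15.8, 15.3 and 16.4 CPM in well-fed pools. Apart from food-restricted pool 3 all pools lay between 14.7 and 16.8 CPM. The means of IGFBP3 were 16.0 ± 1.71 and 16.0 ± 0.65 CPM (SD, n = 4 each), with a 95% interval of the change from 0.815-fold to 1.22-fold. IGFBP5, a binding protein held in extracellular matrix, was at 252.9, 297.2, 307.1 and 358.4 CPM in food-restricted and 298.4, 305.7, 343.7 and 298.2 CPM in well-fed pools. The lowest and the highest pool were both food-restricted. IGFBP5 had a log2 fold change of -0.04 (SE 0.12), with a 95% interval from 0.816-fold to 1.17-fold.

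**Figure D2:**
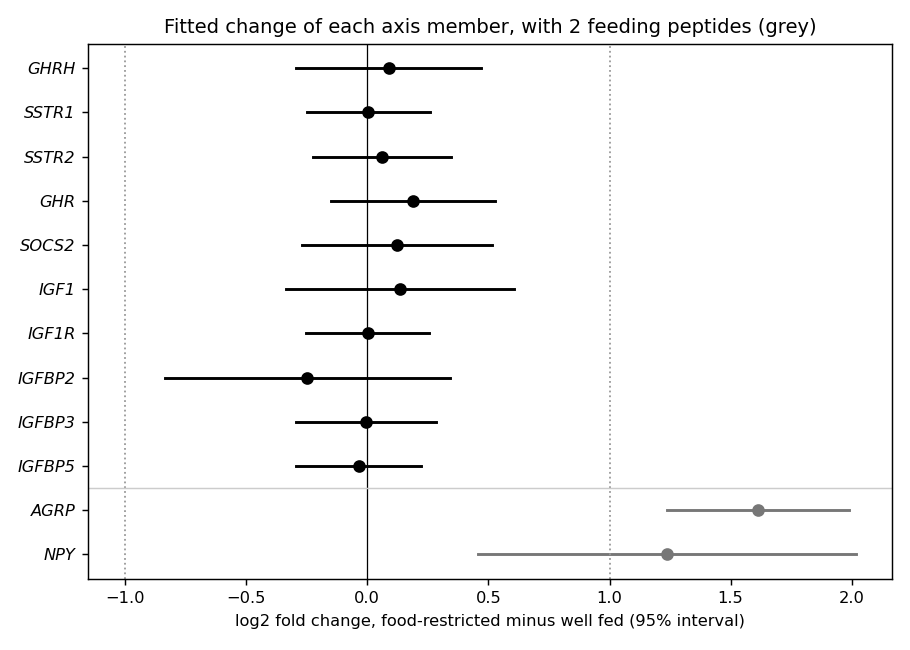
Log2 fold change (x axis, food-restricted minus well fed) of each of the 10 members in black, and of the feeding peptides AGRP and NPY in grey, with points for the edgeR estimate, bars for its 95% interval and dotted lines at a 2-fold change. All 10 member intervals cross 0 and stay inside the dotted lines, while the interval of AGRP runs from 1.24 to 1.99.

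The intervals set the size of change that these pools leave possible for each transcript, one gene at a time. The 95% intervals of SSTR1, IGF1R, IGFBP3 and IGFBP5 ended between 0.815-fold and 1.22-fold, and the widest upper end was that of IGF1 at 1.52-fold. The widest lower end was that of IGFBP2 at 0.561-fold. For comparison AGRP was 3.06-fold higher, with a 95% interval from 1.24 to 1.99 on the log2 scale, and NPY, its partner peptide, was 2.36-fold higher with an adjusted p of 1 (edgeR). The intervals are not adjusted for the number of genes. Ratios within a pool, which do not depend on how libraries are scaled, were compared for 6 pairs of members chosen after the data were seen. Between the groups the log2 ratio of IGF1 to IGF1R reads differed by 0.17, that of IGFBP2 to IGFBP5 by -0.18 and that of SOCS2 to GHR by -0.07 (food-restricted minus well fed). Exact two-sided permutation p over the 6 pairs was between 0.514 and 0.857, and 0.857 for each after Benjamini-Hochberg adjustment.

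**Figure D3:**
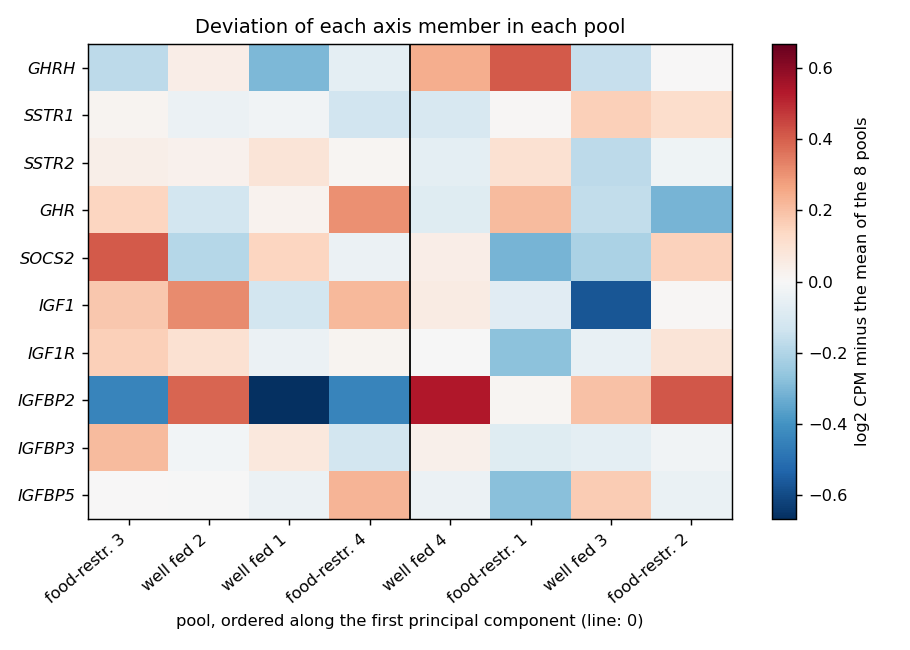
Log2 CPM of each member (rows) in each pool (columns, ordered along the first principal component, with a line at 0) minus its mean over the 8 pools; red is above and blue below that mean. In no row do the sides of the line have opposite colours throughout, and IGFBP2 shows the deepest colours, with well-fed pool 1 lowest and well-fed pool 4 highest.

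No member parted wholly along the split that the first principal component makes through the feeding groups. In 0 of 10 members did the 4 pools of one side lie wholly above the 4 of the other. Of all tested genes 23.1% did so, a share given as a description because the component was computed from these genes. With 10 members, 0 says little about whether the axis differs from other genes here. The mean of the side with food-restricted pools 1 and 2 over that of the other side was 1.45-fold for IGFBP2, 1.20-fold for GHRH and 0.823-fold for IGF1. For the other members it lay between 0.89-fold and 1.06-fold. GHRH was 1.12-fold higher with food restriction among the pools on the side of food-restricted pools 1 and 2, and 0.998-fold on the other side. The corresponding folds were 1.07 and 1.21 for GHR, 1.14 and 1.06 for IGF1, 0.903 and 0.761 for IGFBP2 and 0.857 and 1.10 for IGFBP5. Each of these rests on 2 pools against 2, and the second fold of each includes food-restricted pool 4, which lay close to 0 on the component. The extremes of the members were spread over the pools: food-restricted pool 3 was the highest of the 8 in SOCS2, IGF1R and IGFBP3, and food-restricted pool 1 was the lowest in SOCS2, IGF1R and IGFBP5 and the highest in GHRH and SSTR2.

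The rest of the axis was read from 5 lists with 82 genes, of which 74 were tested and 0 passed over all genes by edgeR. At an unadjusted p under 0.05, 1 of the 74 was lower and 0 were higher, against 1.7% of all tested genes in either direction. Of the 74, 32 were higher and 42 lower (56.8% lower, against 47.1% of all tested genes), and their median was -0.01.

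Upstream of the pituitary, 9 of 15 genes of growth hormone release and GHRH neurons were tested, with 6 higher, 3 lower and a median of 0.04. GHSR, the ghrelin receptor, was at 4.49 ± 1.12 CPM in food-restricted and 4.37 ± 0.256 CPM in well-fed pools (SD, n = 4 each). SSTR3 had the smallest p of the list (log2 fold change -0.21, SE 0.17), followed by HMX2, a transcription factor of arcuate GHRH neurons (0.80, SE 0.89, with 4 to 75 reads per pool), and GPR101, an orphan receptor (-0.17, SE 0.59). DLK1 and GAL, also expressed by GHRH neurons and singled out here once their values were known, were at 89.3 ± 32.7 against 86.7 ± 36.6 CPM and 19.0 ± 11.5 against 19.4 ± 13.1 CPM. DLK1, GAL and HMX2 parted the sides of the first principal component and GHRH did not. These were 3 of the 9 tested genes of the list, beside 23.1% of all tested genes, from which the component was computed. DLK1 was at 100.3 to 129 CPM in food-restricted pools 1 and 2 and well-fed pools 3 and 4, and at 48.5 to 73.1 CPM in the others. GHRL, GSX1, MBOAT4 and SSTR5 had too few reads to be tested, SST had 0, and SSTR4 had no row under that symbol.

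The pituitary hormone GH, whose transcript marks somatotrophs, was at 16.7, 33.0, 23.3 and 24.6 CPM in food-restricted and 19.4, 20.3, 4.46 and 9.12 CPM in well-fed pools. Well-fed pools 3 and 4 were low, and well-fed pools 1 and 2 lay above food-restricted pool 1. GH had a log2 fold change of 0.87 (SE 0.41), and it did not pass (edgeR adjusted p = 1; exact two-sided permutation p = 0.114). Of the 11 tested pituitary markers 4, GH among them, were higher and 7 lower. In well-fed pools 3 and 4 LHB was at 99.6 and 117 CPM, the highest of all pools, and PRL was at 37.8 and 98.1 CPM. The part of pituitary tissue in the samples in the difference of GH was not tested, and reads of GH may be shared with near-identical gene copies.

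Of 17 genes of growth hormone receptor signalling 16 were tested, with 5 higher, 11 lower and a median of -0.03. SOCS7 was at 46.9 ± 6.40 against 56.5 ± 7.65 CPM (log2 fold change -0.27, SE 0.14) and STAT3, a transcription factor of cytokine and leptin receptors, was at 73.6 ± 10.2 against 87.3 ± 17.5 CPM (-0.25, SE 0.16). SOCS4 (0.25, SE 0.17) and PTPN6, a phosphatase that ends receptor signalling (-0.17, SE 0.14), came next by p. The transcription factors that carry the growth hormone signal itself differed little, with STAT5B at 108 ± 6.30 against 107 ± 5.51 CPM and STAT5A at 13.7 ± 3.01 against 14.9 ± 1.70 CPM (SD, n = 4 each). CISH, like SOCS2 a STAT5 target, had a log2 fold change of 0.25 (SE 0.25).

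Among the 10 other ligands, receptors and binding proteins of the IGF family 4 were higher and 6 lower, with a median of -0.01. IGF2, the second IGF ligand, was at 7.91 ± 3.15 against 9.30 ± 3.19 CPM, and its clearance receptor IGF2R was at 58.4 ± 11.7 against 58.4 ± 13.5 CPM. INSR, the insulin receptor, was at 59.0 ± 5.68 against 59.9 ± 9.63 CPM (SD, n = 4 each). IGFBP7, a binding protein of blood vessels, had the smallest p, at 102.7, 100.3, 91.0 and 84.6 CPM in food-restricted and 94.3, 120.5, 106 and 132 CPM in well-fed pools. Its log2 fold change was -0.26 (SE 0.13), the groups overlapped because well-fed pool 1 lay below 2 food-restricted pools, and it did not pass (edgeR adjusted p = 1). The endothelial markers beside it summed to 307 to 378 CPM in food-restricted and 288 to 340 CPM in well-fed pools, and 5 of the 9 were higher. The markers of pericytes, smooth muscle and meninges summed to 713 to 790 CPM in food-restricted and 755 to 834 CPM in well-fed pools, and 7 of the 10 were lower with a median of -0.10. Among these COL3A1 (-0.40, SE 0.14) and KCNJ8, a pericyte channel gene (-0.35, SE 0.16), had no overlap between the groups. Such a gap was seen in 1.6% of all tested genes, and neither gene passed (edgeR adjusted p = 1 each). For KCNJ8 the gap was small, from 10.06 CPM in food-restricted pool 3 to 10.08 CPM in well-fed pool 1. RGS5 (0.11, SE 0.16), PDGFRB (0.04, SE 0.16) and MYH11 (0.02, SE 0.17) of the same list were higher. The part of endothelial, pericyte, smooth muscle and meningeal cells in the difference of IGFBP7 was not tested. INSRR (0.42, SE 0.50) and IGFBP6 (0.31, SE 0.60) varied widely between pools.

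PAPPA, the protease that cleaves IGF binding proteins and so frees IGF, was the 1 gene of the 74 with an unadjusted p under 0.05. It had 11, 54, 14 and 36 reads in food-restricted pools 1 to 4 and 80, 86, 70 and 58 reads in well-fed pools 1 to 4. The highest food-restricted pool was below the lowest well-fed pool in CPM (1.29 against 1.46), a gap in either direction that 1.6% of all tested genes had, and PAPPA was at 0.683 ± 0.486 against 1.77 ± 0.333 CPM (SD, n = 4 each). This was a log2 fold change of -1.37 (SE 0.52), with an edgeR unadjusted p of 0.0234 and an adjusted p of 1. The other tested genes of this list were HTRA1, a secreted protease (-0.06, SE 0.11), and the stanniocalcins STC1 (0.02, SE 0.14) and STC2 (-0.31, SE 0.64), which inhibit PAPPA. PAPPA2 had at most 14 reads in a pool and was not tested.

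Downstream of the IGF1 and insulin receptors all 35 genes were tested, with 16 higher, 19 lower and a median of 0.00. IRS1, the adaptor that links both receptors to PI3 kinase, was at 21.5, 29.1, 22.0 and 22.2 CPM in food-restricted and 20.1, 16.1, 20.6 and 21.2 CPM in well-fed pools. Its groups came next to each other without overlap, with 21.5 CPM in the lowest food-restricted and 21.2 CPM in the highest well-fed pool. It was the 1 gene of the 35 with such a gap, which 1.6% of all tested genes had. The log2 fold change of IRS1, 0.28 (SE 0.15), did not pass (edgeR adjusted p = 1). SOS1, an exchange factor of the MAP kinase branch, was at 0.27 (SE 0.15), FOXO3, a transcription factor that insulin and IGF1 restrain, at -0.17 (SE 0.12) and SHC1, another adaptor, at -0.19 (SE 0.12). IRS2, the adaptor's close relative, was at 70.7 ± 3.57 against 70.8 ± 5.80 CPM (SD, n = 4 each).

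**Figure D4:**
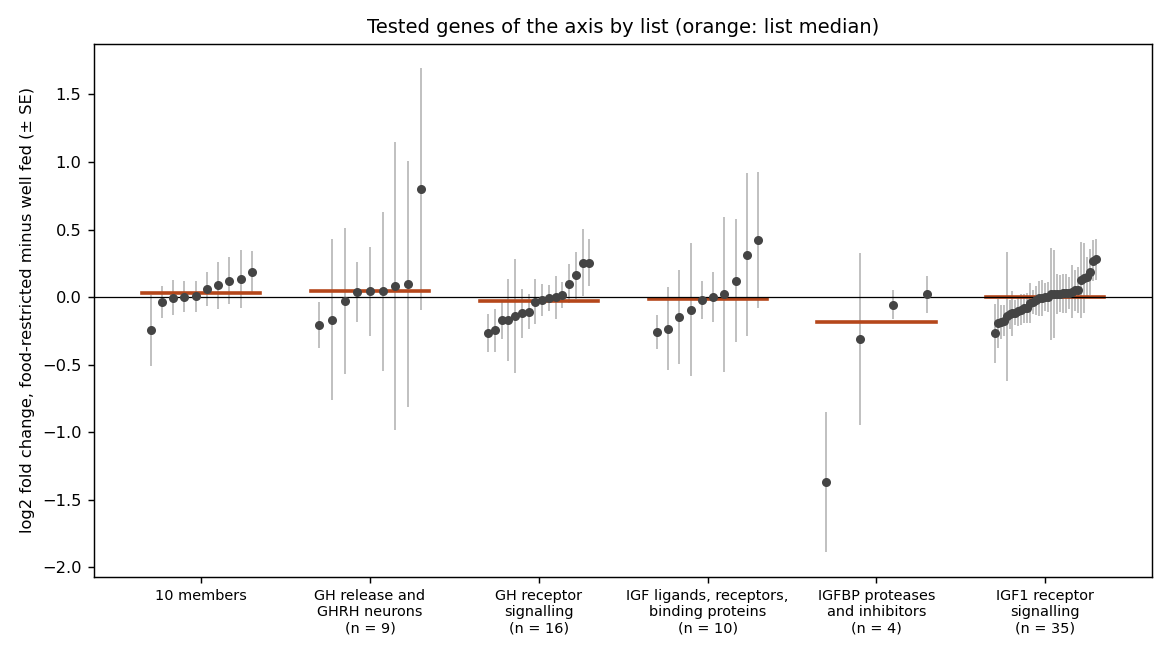
Log2 fold change (y axis, food-restricted minus well fed, ± SE) of the 10 members and of the 74 tested genes of the 5 further lists, sorted within each list, with list medians in orange. All medians but that of the 4 protease genes lie within 0.05 of 0, and PAPPA at -1.37 stands lowest.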

How the data were processed

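The authors deposited 1 table of raw read counts per gene with a column for each of the 8 pools, per the file headers. Stranded mRNA libraries were made with the TruSeq kit from TriReagent RNA, per the labels' protocols. The submitters' processing notes name featureCounts 2.0.0, SAMtools 1.9, TopHat2 2.1.1, Bowtie2 2.3.5.1 and bcl2fastq 2.20 without saying how each was used. Not given in the sources used here are the genome build, the strand setting and the treatment of shared reads. Names of LOC genes came from a RefSeq table of ARS-UI_Ramb_v3.0, in which 28100 IDs (83.6%) and all 10 members matched.

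The test was that of edgeR 4.0.16 (R 4.3.3): filterByExpr (minimum count 10, minimum total 15), TMM, the quasi-likelihood F test without covariates, and Benjamini-Hochberg adjustment over 18193 genes. The SE is the size of the log2 fold change over the root of F, and intervals use the moderated degrees of freedom. Single genes also had exact permutation tests on log2 CPM (prior count 2). Alternatives were other scalings and filters, DESeq2 1.42.0, limma 3.58.1 voom, robust edgeR, 1 surrogate variable (sva 3.50.0), blocks and each pool left out. The test was tested on simulated data, in which pools varied independently and less than they did here. No pair of pools in a group agreed within counting noise (lowest chi-square over its degrees of freedom 23.9).

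Members and lists were chosen with earlier results of these data known. Named were the members, SST, GH, IGF2, GHSR, IGF2R, INSR, AGRP and NPY whatever their result, and the 4 genes with the smallest p in each list; other genes were named after their values were seen.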

Additional observations from a re-analysis of the deposited data

Results flagged for a closer look

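In IGFBP5, well-fed pool 3 (343.7 CPM) stood apart from the other 3 well-fed pools (298.2 to 305.7 CPM). Its gap to the nearest pool was 0.836 of the group's range, just past the critical value of Dixon's test for 4 values. This was 1 of 20 sets of 4 pools examined (10 members in 2 groups), and chance flags about 1 in 20. Without that pool the log2 fold change of IGFBP5 was 0.03 in place of -0.04.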

How the results depend on the processing

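None of the 10 members was called in the main analysis or under any of 19 alternatives (edgeR, DESeq2 or limma voom), and the lowest adjusted p of a member was 0.857. With all pools kept, signs turned only for 3 members whose log2 fold changes were near 0. SSTR1, at 0.0047 in the main analysis, was at -0.00597 with upper-quartile scaling, -0.000854 without a low-count filter and -0.00408 with 1 surrogate variable. IGF1R, at 0.00313, was at -0.00583 with upper-quartile scaling, -0.00366 without the filter and -0.00403 with limma voom. IGFBP3, at -0.00475, was at 0.00243 with RLE factors, 0.00254 with DESeq2 and 0.00331 with 1 surrogate variable. With the replicate number as a block IGF1R was at -0.00475, no member's call changed, and 0 of all tested genes were called. Leaving out each pool moved the log2 fold changes from -0.0464 to 0.19 for GHRH, -0.0298 to 0.0769 for SSTR1, 0.031 to 0.101 for SSTR2, 0.13 to 0.322 for GHR, -0.00774 to 0.236 for SOCS2, 0.0103 to 0.278 for IGF1, -0.0525 to 0.0913 for IGF1R, -0.446 to -0.106 for IGFBP2, -0.0815 to 0.0458 for IGFBP3 and -0.115 to 0.0482 for IGFBP5. Over all genes, 1 was called in the main analysis, 6 when the split along the first principal component was a block, 7 with 1 surrogate variable, 4 with DESeq2, and 0 without any single pool. No pairing of the pools by replicate number was seen: deviations of same-numbered pools correlated at -0.42 to -0.207 over genes, and none matched its own number best. Same-numbered pools lay on opposite sides of the first principal component, so this check could not show a weaker pairing. Among the members IGF1 had the fewest reads; several other genes named, such as HMX2, STC2, GPR101, INSRR and PAPPA, had fewer still.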

Other observations

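Of all tested genes with a symbol, 14662 were compared with each member over the 8 pools, and those with the most similar pattern are given as a description without p, since they were picked as the highest. For GHRH these were CLN3 (Pearson's r = 0.976, Spearman's rho = 0.905), UFD1 (0.951 and 0.905) and FTL (0.937 and 0.857). For GHR, the member with the smallest p, they were TVP23C (0.964 and 0.976), FKBP14 (0.959 and 0.976) and VHL (0.958 and 0.952). No other member was among them.

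Of the 74 tested genes of the further lists, 16 (21.6%) parted the sides of the first principal component, near the 23.1% of all tested genes. Among them were the binding protein genes IGFBP6 and IGFALS, the receptor gene INSR, the kinase genes AKT1 and AKT2 and the STAT5 target CISH. IGFBP6 was at 60.3 to 79.9 CPM in food-restricted pools 1 and 2 and well-fed pools 3 and 4, and at 12.1 to 29.3 CPM in the other 4. These genes were named after their values were seen.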
